A study of Mus musculus with 24 samples.

Results

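DNA replication genes of S phase are described here: 45 genes, matched by symbol in the deposited table of estimated counts, of 37620 genes in that table. All 45 were found in it and all 45 passed the filter on low counts, with reads assigned to each of them in all 24 libraries. The libraries hold polyadenylated RNA of jejunal crypts from 24 mice, with 3 mice in each of 8 groups. The genotypes were ApccKO;NlecKO, in which the gene Apc and the Notchless gene Nle1 were both conditionally knocked out (the double knockout), ApccKO, NlecKO and Control. Crypts were taken on day 2 or day 1, that is 48 or 24 h after induction. Mice of every genotype, Control included, had received intraperitoneal tamoxifen at 56 mg/kg on 3 consecutive days at 5 to 10 weeks of age. The labels name neither the Cre line nor the cells in which it acts, so the crypt cells that lost each gene cannot be named from the labels.

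To copy its genome, a cell in G1 loads the MCM helicase onto origins marked by the origin recognition complex, with the help of Cdc6 and Cdt1. In S phase the helicase is activated by Cdc45 and the GINS complex, DNA polymerases extend primed strands while held by the sliding clamp PCNA, and the fragments of the lagging strand are joined. Most of these genes are transcribed around the G1 to S transition under E2F factors, so their RNA is a common readout of the cycling fraction of a tissue, and in the intestine the cycling cells sit in the crypts. Notchless, the product of Nle1, is a factor for building the large subunit of the ribosome, and APC holds down Wnt signalling.

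The promoters of these genes are shown first, from RefSeq on the build GRCm38.p6. Each window runs from 250 bases before to 50 bases after the start site, on the strand of the gene. Of the 45 genes, 37 had an entry, with 43 windows in all. An E2F motif, searched as TTTCCCGC, TTTCGCGC, TTTGCCGC or TTTGGCGC on both strands with overlaps allowed, occurred in 14 of the 43 windows (32.6%), belonging to 14 genes, against 744 of 32851 windows of all genes (2.26%). The motif CCAAT, read on both strands, occurred in 25 of the 43 windows (58.1%) against 37.4% of all windows. The CHR motif of cell cycle genes, searched as TTTGAA or TTCGAA on both strands, occurred in 7 windows (16.3%) against 19.2% of all windows. The 6 sequences with a match below come from the helicase (Mcm3, Mcm5, Mcm6, Mcm7), from origin licensing (Cdc6) and from the clamp loader (Rfc3). Tk1, which departed from the other genes as described below, is shown from the 23 genes whose windows held none of the 4 E2F motifs. Upon Apc loss on day 2 those 23 genes changed by -0.14 to 1.27 on the log2 scale, against 0.495 to 1.21 for the 14 with a match. The sequences were chosen after the matches were seen. Capitals mark the E2F motif on either strand.
Mcm3 (chr1:20820263-20820562, minus strand): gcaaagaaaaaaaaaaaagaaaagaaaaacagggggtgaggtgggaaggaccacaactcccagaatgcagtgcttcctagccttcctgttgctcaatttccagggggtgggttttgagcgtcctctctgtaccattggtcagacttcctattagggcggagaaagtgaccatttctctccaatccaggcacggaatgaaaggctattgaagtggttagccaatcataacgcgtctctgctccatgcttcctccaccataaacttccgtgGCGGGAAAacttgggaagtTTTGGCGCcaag
Mcm5 (chr8:75109259-75109558, plus strand): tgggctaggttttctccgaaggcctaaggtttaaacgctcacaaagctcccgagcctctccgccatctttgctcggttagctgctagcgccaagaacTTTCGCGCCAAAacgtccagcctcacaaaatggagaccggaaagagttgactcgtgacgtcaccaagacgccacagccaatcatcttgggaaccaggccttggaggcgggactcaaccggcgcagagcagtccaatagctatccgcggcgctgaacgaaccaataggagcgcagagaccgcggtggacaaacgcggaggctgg
Mcm6 (chr1:128359656-128359955, minus strand): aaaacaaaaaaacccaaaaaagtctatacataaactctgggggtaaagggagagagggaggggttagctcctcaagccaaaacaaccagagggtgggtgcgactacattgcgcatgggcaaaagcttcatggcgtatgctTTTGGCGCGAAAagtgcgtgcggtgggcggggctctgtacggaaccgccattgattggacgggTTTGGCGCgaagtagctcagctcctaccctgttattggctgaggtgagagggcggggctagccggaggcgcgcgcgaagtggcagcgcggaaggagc
Mcm7 (chr5:138171834-138172133, minus strand): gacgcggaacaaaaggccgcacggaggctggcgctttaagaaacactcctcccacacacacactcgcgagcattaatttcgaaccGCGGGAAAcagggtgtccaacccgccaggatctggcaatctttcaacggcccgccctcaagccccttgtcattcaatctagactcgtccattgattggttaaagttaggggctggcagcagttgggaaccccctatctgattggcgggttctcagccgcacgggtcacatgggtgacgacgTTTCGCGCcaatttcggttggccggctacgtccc
Cdc6 (chr11:98907901-98908200, plus strand): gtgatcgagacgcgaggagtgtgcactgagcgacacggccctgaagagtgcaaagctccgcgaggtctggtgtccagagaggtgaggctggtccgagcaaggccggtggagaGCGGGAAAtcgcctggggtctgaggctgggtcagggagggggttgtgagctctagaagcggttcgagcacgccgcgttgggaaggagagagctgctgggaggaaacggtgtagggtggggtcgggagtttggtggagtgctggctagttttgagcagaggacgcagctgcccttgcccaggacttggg
Rfc3 (chr5:151651159-151651458, minus strand): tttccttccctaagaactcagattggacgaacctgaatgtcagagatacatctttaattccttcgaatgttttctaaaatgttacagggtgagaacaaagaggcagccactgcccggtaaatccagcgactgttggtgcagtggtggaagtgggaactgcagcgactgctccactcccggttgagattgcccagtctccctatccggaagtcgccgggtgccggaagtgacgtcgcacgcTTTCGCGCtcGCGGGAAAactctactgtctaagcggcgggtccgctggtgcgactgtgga
Tk1 (chr11:117825965-117826264, minus strand): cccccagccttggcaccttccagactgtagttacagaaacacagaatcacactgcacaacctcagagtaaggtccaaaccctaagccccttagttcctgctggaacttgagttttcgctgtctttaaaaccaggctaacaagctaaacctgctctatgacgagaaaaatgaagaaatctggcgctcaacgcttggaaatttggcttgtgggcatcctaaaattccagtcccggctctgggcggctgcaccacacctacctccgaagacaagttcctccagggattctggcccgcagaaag

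In Mcm5 and in Mcm6 a pair of motifs on opposite strands overlapped, which gives the single runs of 12 capitals. A match describes the letters of a window and is no measured site of binding, and a window without one says only that these letters were not in it.

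**Figure D1:**
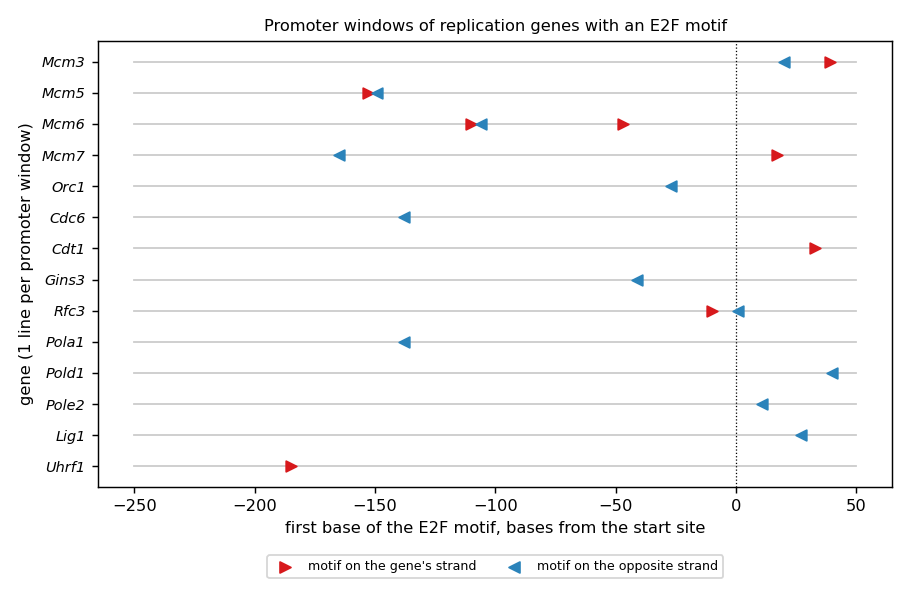
First base of each E2F motif in the promoter windows of the replication genes, in bases from the start site (horizontal axis), with 1 line per window and the marker showing the strand of the motif. The 14 windows with a match are drawn, and the matches run from 185 bases before the start site in Uhrf1 to 40 bases after it in Pold1.

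The libraries held 17864654 to 26469830 estimated counts (median 19818290), and 16552 genes were tested. Nle1 was at 12.7 ± 0.42 TPM (a level per transcript length, scaled to the same total in each library) in double knockout against 47.0 ± 3.1 TPM in ApccKO crypts on day 2, and at 6.75 ± 0.42 TPM in NlecKO against 26.1 ± 4.9 TPM in Control crypts (mean ± SD, n = 3 each), with like values on day 1. Apc averaged 23.0 to 30.3 TPM in the 8 groups, and counts over the whole gene do not check its deletion. Epithelial markers were high in all libraries, with 12 of 12 tested, whereas 10 of 16 stromal and endothelial markers passed the filter and summed to at most 34.36 TPM in any library. On day 1 double knockout replicate 3 and ApccKO replicates 2 and 3 stood apart in Gm8730 and Gm9625, which were at 0.301 to 0.726 CPM (counts scaled to the library total) in these 3 libraries and at 33.0 CPM or more in each of the others. The enterocyte gene Lct, for lactase, was at 321 to 476 CPM in the 3, against 10.5 to 128 CPM in the other Apc-lost libraries. Counts of day 1 in Apc-lost crypts are also given without these 3. The submitters' code numbers put all Apc-lost libraries in a single block, with Apc-intact ones before and after it. What the codes stand for is not stated, and within a day a difference between blocks and Apc loss cannot be told apart.

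Summed over the 45 genes, replication transcripts were highest in ApccKO crypts, lowest in NlecKO crypts, and lower in double knockout than in ApccKO crypts on both days. On day 2 the sums were 1315, 1430 and 1224 TPM in double knockout crypts and 2922, 2692 and 2832 TPM in ApccKO crypts. NlecKO crypts of day 2 had 1154, 931.3 and 999.6 TPM, against 1278, 1863 and 1413 TPM in Control crypts. On each of the 2 days the ApccKO libraries stood above those of the 3 other genotypes without overlap, and the NlecKO libraries stood below those of Control. On day 1 the sums were 2140, 2178 and 1606 TPM in double knockout, 3046, 2926 and 3050 TPM in ApccKO, 885.3, 1211 and 1128 TPM in NlecKO, and 1439, 1667 and 1984 TPM in Control crypts. The double knockout libraries of day 2 fell within the range spanned by Control on that day, apart from 1224 TPM in replicate 3. In crypts as a whole, fewer cells in S phase and less of these RNAs per cell cannot be told apart.

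**Figure D2:**
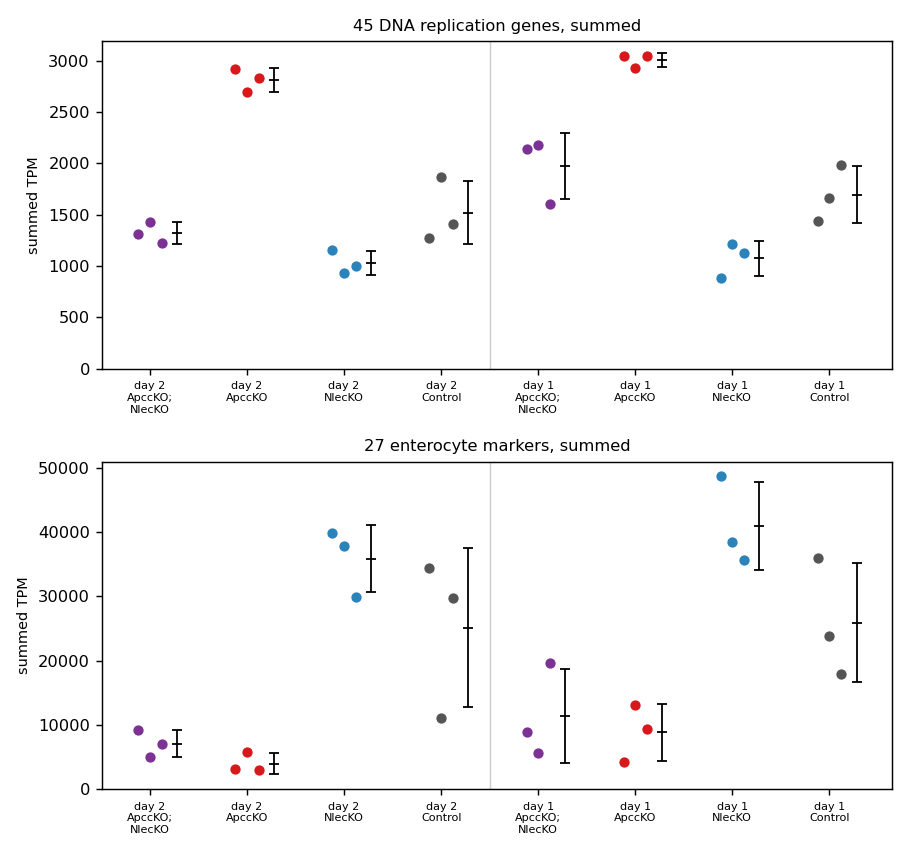
Summed TPM of the 45 replication genes and of the enterocyte markers in each library (points), by genotype and day, with the mean ± SD of each group beside them (n = 3). ApccKO libraries held 2692 to 3050 TPM of replication transcripts, above all libraries of the other genotypes, and enterocyte markers averaged less in Apc-lost than in Apc-intact groups.

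Enterocyte markers, a list of 27 absorptive cell genes all of which were tested, differed in sum between the groups as well. Their sums on day 2 were 9181, 4952 and 7023 TPM in double knockout, 3070, 5834 and 2931 TPM in ApccKO, 39870, 37810 and 29910 TPM in NlecKO, and 34450, 11050 and 29730 TPM in Control crypts. On day 1 they were 8807, 5610 and 19570 TPM in double knockout, 4194, 13030 and 9280 TPM in ApccKO, 48660, 38490 and 35600 TPM in NlecKO, and 36000, 23840 and 17870 TPM in Control crypts. Inside groups, the library with the most enterocyte RNA had the least replication RNA in 6 of the 8 groups, and the one with the least enterocyte RNA had the most replication RNA in 4 of the 8, among them Control of day 2 with replicate 2. None of the 27 was at 0 in all libraries. The part of these cells in the results was not tested. Their summed markers were added as a term to the fit, an alternative chosen after seeing the data, whose counts are given with the results. These sums themselves went with genotype, with means of 3945 TPM in ApccKO and 25077 TPM in Control crypts of day 2. The term therefore cannot tell the part of these cells apart from genotype.

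Loss of Nle1 with Apc present lowered replication genes on both days, and the difference between the days passed for none of them. On day 2, 20 of 45 fell in NlecKO relative to Control crypts and none rose, against 8.26% of all tested genes called lower. On day 1, 27 of 45 fell and none rose, against 1.61% of all tested genes called lower. The median log2 fold change of the 45 was -0.44 on day 2 and -0.57 on day 1, where that of all tested genes was 0.0032 and -0.0035. By CPM scaled with the factors of the fit, all 3 NlecKO libraries lay below all 3 Control libraries for 28 genes on day 2, against 15.3% of all genes, and for 39 on day 1, against 11.5%. These and all adjusted p values below come from edgeR's quasi-likelihood test fitted to all 24 libraries, adjusted by Benjamini-Hochberg over the 16552 genes and called under 0.05, and fold changes are log2 ± SE from counts scaled by the trimmed mean of M values. TPM are not scaled in that way, and the log2 ratio of mean TPM departed from the fitted change by a median of -0.20 over the 45 genes for Nle1 loss with Apc lost and 0.19 for Apc loss on day 2. The counts rested on single libraries. On day 2 the count was 9 or 6 without NlecKO replicate 2 or 3 and 5 without Control replicate 2. On day 1 it was 4, 6 or 3 without NlecKO replicate 1, 2 or 3 and 1 or 0 without Control replicate 2 or 3. With only the 6 libraries compared in the fit it was 0 on day 2 and 0 on day 1, and with the enterocyte term it was 17 on each day.

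Where Apc was lost, Nle1 loss lowered nearly all replication genes by day 2. In double knockout relative to ApccKO crypts 43 of 45 fell and none rose on day 2, against 15.4% of all tested genes called lower, with a median of -0.92. The ribonucleotide reductase subunit Rrm2 (-0.18 ± 0.18, adjusted p = 0.465) and the polymerase delta subunit Pold2 (-0.33 ± 0.15, adjusted p = 0.096) were the 2 that did not pass. On day 1, 36 of 45 fell, against 4.77% of all tested genes, with a median of -0.54. On the same CPM scale all double knockout libraries lay below all ApccKO libraries for 44 genes on day 2 and for 42 on day 1, against 23.3% and 14.3% of all genes. The day 2 count stayed between 42 and 43 when any 1 library was left out and was 42 with the enterocyte term. The day 1 count was 37 with that term, 8 without double knockout replicate 3, 9 with only the 6 libraries compared, and 0 without the 3 libraries that stand apart, where ApccKO keeps 1 library, the median was -0.43 and 0.188% of all genes were called.

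Apc loss raised most of the replication genes on both days, with like medians. In ApccKO relative to Control crypts 41 of 45 rose on day 2 and none fell, against 29.2% of all tested genes called higher, with a median of 0.74. On day 1, 42 of 45 rose and none fell, against 24.7% of all tested genes, with a median of 0.73. Geminin (Gmnn), Pold2 and thymidine kinase (Tk1) did not pass on either day, and thymidylate synthase (Tyms) did not pass on day 2. By CPM all ApccKO libraries lay above all Control libraries for 42 genes on day 2 and 43 on day 1, against 32.5% and 29.6% of all genes. Leaving out any 1 library gave 39 to 41 on day 2 and 41 to 44 on day 1, and 40 rose on day 1 without the 3 libraries that stand apart. With the enterocyte term the count was 10 on day 2, with a median of 0.25, and 27 on day 1, with a median of 0.46.

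**Figure D3:**
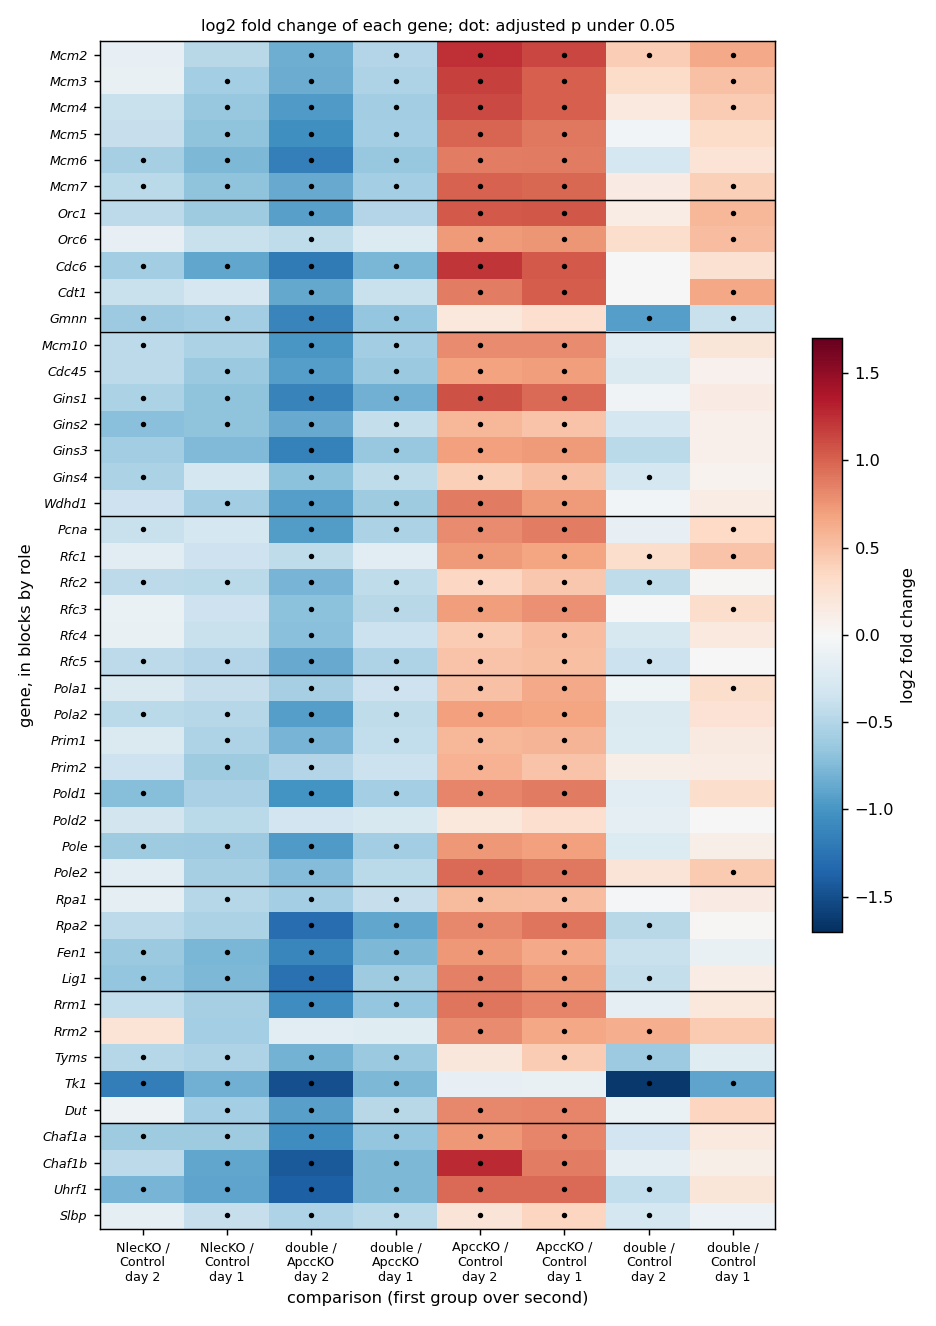
log2 fold change of each of the 45 genes (vertical axis, in blocks by role) in the comparisons named on the horizontal axis, first group over second, with a dot where the adjusted p was under 0.05. The columns of Apc loss are positive but for Tk1, and those of Nle1 loss negative but for Rrm2 on day 2 with Apc intact.

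The 6 subunits of the MCM helicase, which unwinds the parental strands, had the largest median rise of the 8 classes upon Apc loss on day 2. All 6 rose in ApccKO crypts on both days, with a median of 1.06 on day 2 and 0.999 on day 1. All 6 fell in double knockout relative to ApccKO crypts on both days, with a median of -0.91 on day 2 and -0.57 on day 1. In NlecKO relative to Control crypts 2 of 6 fell on day 2, Mcm6 and Mcm7, and 5 of 6 on day 1, all but Mcm2. Mcm2 was at 45.1, 52.2 and 44.0 TPM in double knockout against 99.2, 86.7 and 101 TPM in ApccKO crypts on day 2, and at 32.4, 25.1 and 29.9 TPM in NlecKO against 28.9, 45.1 and 32.1 TPM in Control crypts. The Apc-lost groups did not overlap, whereas Control replicates 1 and 3 lay inside the NlecKO range. On day 2 Mcm2 fell in double knockout relative to ApccKO crypts (-0.83 ± 0.15, adjusted p = 0.000314) and rose in ApccKO relative to Control crypts (1.25 ± 0.15, adjusted p = 1.28e-06), while its value in NlecKO against Control was -0.13 ± 0.15, adjusted p = 0.616. Mcm7, with the highest level of the class, was at 86.7, 89.4 and 73.8 TPM in double knockout against 162, 142 and 153 TPM in ApccKO crypts, and at 45.8, 42.0 and 44.7 TPM in NlecKO against 48.5, 80.8 and 57.0 TPM in Control crypts on day 2. Neither pair overlapped. Mcm7 fell upon Nle1 loss with Apc lost (-0.86 ± 0.14, adjusted p = 0.000121) and with Apc intact (-0.46 ± 0.14, adjusted p = 0.0328). Of its words of 31 bases, 33.4% also occur in other genes, mostly in Gm5487, so that its level is less certain. Mcm6, whose promoter window held 3 E2F matches, fell in double knockout crypts by the largest amount of the class (-1.16 ± 0.15, adjusted p = 7.97e-06).

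Origin recognition and licensing were read from Orc1 and Orc6, subunits of the origin recognition complex, from the loaders Cdc6 and Cdt1, and from geminin, which binds Cdt1 and blocks a second loading. All 5 fell in double knockout relative to ApccKO crypts on day 2 and 2 of 5, Cdc6 and geminin, on day 1. The same pair fell in NlecKO relative to Control crypts on day 2 and on day 1. All but geminin rose in ApccKO relative to Control crypts on both days. Geminin stood at 29.7, 31.1 and 24.2 TPM in double knockout and 70.6, 70.7 and 69.5 TPM in ApccKO crypts on day 2. In NlecKO it was at 37.8, 28.9 and 28.8 TPM, against 50.4, 56.8 and 56.6 TPM in Control crypts. Each pair was free of overlap, and the double knockout and NlecKO libraries overlapped. Geminin fell upon Nle1 loss with Apc lost (-1.12 ± 0.12, adjusted p = 1.28e-06) and intact (-0.62 ± 0.12, adjusted p = 0.00169), and its change upon Apc loss was 0.18 ± 0.12, adjusted p = 0.191. Cdc6, at 8.01, 8.55 and 6.47 TPM in double knockout against 17.9, 19.0 and 19.9 TPM in ApccKO crypts on day 2, fell by 1.21 ± 0.18 on the log2 scale (adjusted p = 3.57e-05). Orc1 had the largest ratio of mean TPM between ApccKO and Control crypts on day 2, but its TPM ratio departed from the ratio of its counts by 0.37 on the log2 scale, and by counts its rise was 1.04 ± 0.19, adjusted p = 9.89e-05.

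The 7 genes of helicase activation and the fork scaffold comprise Cdc45 and the 4 GINS subunits, which complete the active helicase, Mcm10, needed for its activation, and Wdhd1, which ties polymerase alpha to the helicase. All 7 rose in ApccKO relative to Control crypts and all 7 fell in double knockout relative to ApccKO crypts, on both days. In NlecKO relative to Control crypts 4 of 7 fell on day 2 (Mcm10, Gins1, Gins2 and Gins4) and 4 on day 1 (Cdc45, Gins1, Gins2 and Wdhd1). Mcm10 was at 25.0, 25.5 and 22.7 TPM in double knockout and 60.0, 49.9 and 52.5 TPM in ApccKO crypts on day 2. NlecKO crypts had 19.3, 16.7 and 17.9 TPM of it, against 21.6, 37.5 and 25.1 TPM in Control crypts. Neither the Apc-lost nor the Apc-intact pair overlapped. Mcm10 fell in double knockout relative to ApccKO crypts by 0.99 ± 0.15 on the log2 scale (adjusted p = 3.46e-05). Gins1 was at 13.0, 17.7 and 13.6 TPM in double knockout against 39.1, 37.4 and 36.8 TPM in ApccKO crypts on day 2, without overlap (-1.14 ± 0.14, adjusted p = 7e-06). Its TPM ratio between double knockout and Control crypts of day 2 lay 0.42 below that of the counts on the log2 scale. Gins2 shares 66.2% of its words with Gse1 on the opposite strand, and whether the libraries kept strand is not stated, so its values are uncertain.

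PCNA, the sliding clamp, and the 5 subunits of its loader, replication factor C, rose and fell together in Apc-lost crypts. All 6 rose upon Apc loss on both days, with a median of 0.60 on day 2 and 0.60 on day 1, and all 6 fell in double knockout relative to ApccKO crypts on day 2. On day 1, 4 of 6 fell in double knockout relative to ApccKO crypts, all but Rfc1 and Rfc4. Upon Nle1 loss with Apc intact 3 fell on day 2 (Pcna, Rfc2, Rfc5) and 2 on day 1 (Rfc2, Rfc5). Pcna, the most abundant of the 45 per length, was at 112, 106 and 94.9 TPM in double knockout and 241, 235 and 224 TPM in ApccKO crypts on day 2. In NlecKO crypts it was at 101, 79.7 and 77.9 TPM, against 99.8, 149 and 114 TPM in Control crypts, and NlecKO replicate 1 lay just above Control replicate 1. Pcna fell by 0.96 ± 0.13 on the log2 scale (adjusted p = 1.1e-05) upon Nle1 loss with Apc lost and by 0.37 ± 0.13 on the log2 scale (adjusted p = 0.0496) with Apc intact. Rfc5 was at 14.8, 18.3 and 15.1 TPM in double knockout against 33.1, 31.2 and 34.7 TPM in ApccKO crypts, and at 17.6, 13.1 and 11.9 TPM in NlecKO against 19.9, 23.2 and 21.6 TPM in Control crypts. It fell in both comparisons (-0.86 ± 0.11, adjusted p = 9.63e-06 and -0.44 ± 0.11, adjusted p = 0.011), and neither pair overlapped. Rfc1, the large subunit, was lowered least of the 6 in double knockout relative to ApccKO crypts (-0.43 ± 0.11, adjusted p = 0.00335).

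The 8 genes of DNA polymerases and primase include the catalytic and accessory subunits of polymerase alpha (Pola1, Pola2), delta (Pold1, Pold2) and epsilon (Pole, Pole2) and both primase subunits (Prim1, Prim2). All but Pold2 rose upon Apc loss on both days and fell in double knockout relative to ApccKO crypts on day 2. On day 1, 5 of 8 fell in that comparison, and 4 of 8 (Pola2, Prim1, Prim2, Pole) in NlecKO relative to Control crypts. On day 2, 3 of 8 fell in NlecKO relative to Control crypts (Pola2, Pold1, Pole). Pola2 was at 19.3, 20.9 and 19.1 TPM in double knockout and 45.4, 39.4 and 45.5 TPM in ApccKO crypts on day 2 and these groups did not overlap. NlecKO had 16.7, 15.1 and 14.9 TPM of Pola2, against 19.0, 29.2 and 22.3 TPM in Control crypts. It fell by 0.94 ± 0.12 on the log2 scale (adjusted p = 7.33e-06) with Apc lost and by 0.45 ± 0.12 on the log2 scale (adjusted p = 0.0141) with Apc intact. Pold2, the most abundant of the class, was at 83.5, 102 and 92.2 TPM in double knockout and 143, 144 and 143 TPM in ApccKO crypts, yet at 75.6, 143 and 101 TPM in Control crypts, whose replicate 2 equalled ApccKO. The 3 Control libraries thus spread over most of the range of Pold2, and it passed in none of the comparisons between genotypes (adjusted p = 0.096 for double knockout against ApccKO and 0.315 for ApccKO against Control on day 2).

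RPA, which coats single strands (Rpa1, Rpa2), the flap nuclease Fen1 and the ligase Lig1, which finish the lagging strand, fell together in double knockout relative to ApccKO crypts on both days, 4 of 4, and rose together upon Apc loss on both days, 4 of 4. With Apc intact Fen1 and Lig1 fell on day 2, and these 2 and Rpa1 on day 1. Lig1 was at 34.9, 38.5 and 35.8 TPM in double knockout against 99.6, 96.9 and 110.3 TPM in ApccKO crypts on day 2, and at 34.9, 27.8 and 21.9 TPM in NlecKO against 41.6, 61.2 and 37.5 TPM in Control crypts. It fell by 1.26 ± 0.16 on the log2 scale (adjusted p = 7.19e-06) with Apc lost, where no double knockout library reached 40 TPM, and by 0.66 ± 0.16 on the log2 scale (adjusted p = 0.00773) with Apc intact. Rpa1 was at 43.2, 48.4 and 45.6 TPM in double knockout against 79.8, 82.1 and 83.5 TPM in ApccKO crypts, and at 39.2, 33.7 and 35.9 TPM in NlecKO against 39.7, 51.0 and 47.6 TPM in Control crypts. Its fall in double knockout crypts was less than that of Rpa2 (-0.57 ± 0.10, adjusted p = 0.000243 against -1.29 ± 0.19, adjusted p = 3.25e-05), without a test of one gene against the other. Fen1 shares 79.6% of its words with other genes, 76.8% with Gm10143 on the opposite strand, whose mean estimated count was 34.4 against 1151 for Fen1.

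The 5 genes of nucleotide supply did not move as a block. Ribonucleotide reductase (Rrm1, Rrm2) makes deoxyribonucleotides, thymidylate synthase and thymidine kinase make thymidine nucleotides, and the dUTPase Dut removes dUTP. Tk1 was at 34.9, 31.8 and 29.9 TPM in double knockout and 104, 99.8 and 90.5 TPM in ApccKO crypts on day 2. NlecKO crypts had 49.9, 34.1 and 24.8 TPM, against 85.2, 119 and 89.8 TPM in Control crypts. Tk1 was thus about as high in ApccKO as in Control libraries, which overlapped, and low in both groups that had lost Nle1. Day 1 was alike, with 51.5, 56.8 and 37.4 TPM in double knockout, 99.1, 89.4 and 95.6 TPM in ApccKO, 42.6, 51.5 and 49.4 TPM in NlecKO and 82.6, 88.0 and 111 TPM in Control crypts. Tk1 fell upon Nle1 loss with Apc lost (-1.49 ± 0.18, adjusted p = 5.72e-06) and intact (-1.18 ± 0.18, adjusted p = 0.000285) on day 2, and Apc loss changed it by -0.14 ± 0.18, adjusted p = 0.513. Rrm2 passed upon Apc loss and in no comparison of Nle1 loss. Its levels on day 2 were 45.2, 55.5 and 45.5 TPM in double knockout, 65.1, 62.5 and 62.1 TPM in ApccKO, 31.5, 26.9 and 41.2 TPM in NlecKO and 26.5, 39.6 and 28.4 TPM in Control crypts. It rose upon Apc loss (0.81 ± 0.18, adjusted p = 0.000903) and passed in neither comparison of Nle1 loss on day 2 (-0.18 ± 0.18, adjusted p = 0.465 with Apc lost, 0.24 ± 0.18, adjusted p = 0.433 with Apc intact) or day 1 (-0.21 ± 0.18, adjusted p = 0.527 and -0.58 ± 0.18, adjusted p = 0.0996). Its TPM in double knockout lay below those of all ApccKO libraries on both days, but by CPM scaled with the factors of the fit these groups overlapped. On day 2 double knockout replicate 2 was at 83.9 CPM and ApccKO replicate 3 at 83.35 CPM. On day 1 double knockout replicate 1 was at 108.4 CPM and ApccKO replicate 3 at 104.3 CPM. Rrm1, the partner subunit of Rrm2, fell with Apc lost (-1.06 ± 0.16, adjusted p = 3.88e-05). Tyms was at 32.2, 31.6 and 31.3 TPM in double knockout and 77.0, 53.2 and 63.0 TPM in ApccKO crypts, and at 37.5, 24.9 and 29.6 TPM in NlecKO and 40.0, 58.8 and 40.1 TPM in Control crypts of day 2. Tyms fell upon Nle1 loss in all 4 comparisons, by 0.81 ± 0.12 on the log2 scale (adjusted p = 2.99e-05) with Apc lost and 0.48 ± 0.12 on the log2 scale (adjusted p = 0.00823) with Apc intact on day 2, and its change upon Apc loss was 0.19 ± 0.12, adjusted p = 0.169 on day 2 and 0.43 ± 0.12, adjusted p = 0.00437 on day 1, a difference between days that did not pass.

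**Figure D4:**
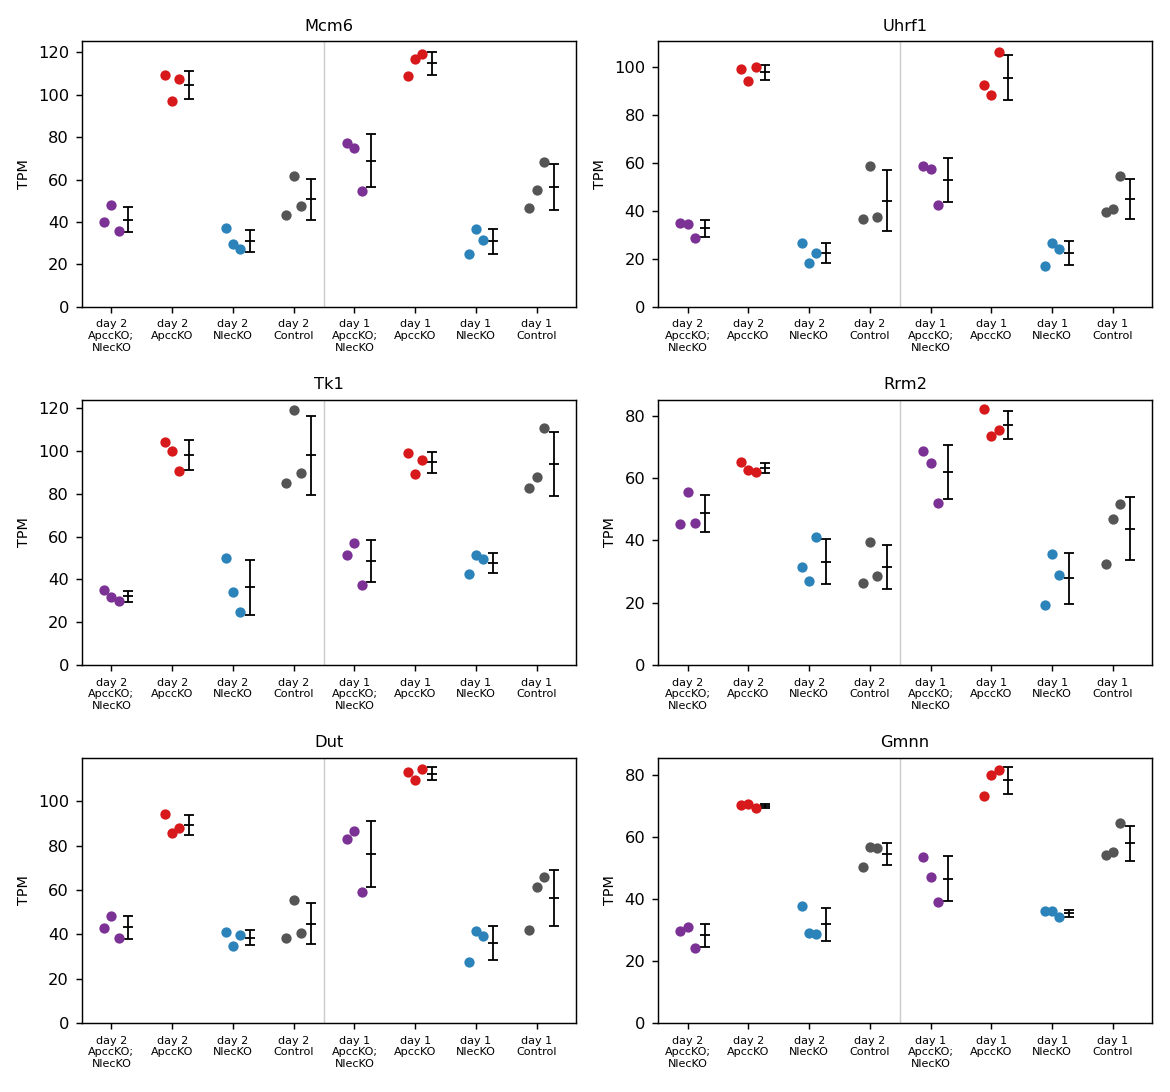
TPM of Mcm6, Uhrf1, Tk1, Rrm2, Dut and Gmnn in each library (points) by genotype and day, with the mean ± SD of each group beside them (n = 3). Tk1 lies at 29.9 to 34.9 TPM in double knockout and at 90.5 to 104 TPM in ApccKO crypts of day 2, while Rrm2 of the same groups lies at 45.2 to 55.5 and 62.1 to 65.1 TPM.

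Chromatin assembly behind the fork was read from Chaf1a and Chaf1b, subunits of the histone chaperone CAF-1, from Uhrf1, which recruits the maintenance DNA methyltransferase, and from Slbp, which binds the stem-loop of histone mRNA. All 4 rose upon Apc loss and all 4 fell in double knockout relative to ApccKO crypts, on both days. With Apc intact all 4 fell on day 1, and Chaf1a and Uhrf1 on day 2. Uhrf1 was at 35.0, 34.5 and 28.6 TPM in double knockout against 99.3, 94.2 and 100.2 TPM in ApccKO crypts on day 2, and at 26.5, 18.2 and 22.6 TPM in NlecKO against 36.8, 58.9 and 37.5 TPM in Control crypts. All 3 double knockout libraries lay under 40 TPM and all 3 ApccKO libraries above 90 TPM, and NlecKO did not overlap Control. Its change was -1.38 ± 0.17, adjusted p = 3.82e-06 with Apc lost and -0.79 ± 0.16, adjusted p = 0.00289 with Apc intact. Slbp, the most abundant of the class, was at 43.8, 45.6 and 39.8 TPM in double knockout and 76.7, 70.8 and 73.6 TPM in ApccKO crypts, and at 46.7, 44.0 and 39.1 TPM in NlecKO and 56.6, 59.1 and 52.6 TPM in Control crypts of day 2. Its change upon Nle1 loss was -0.53 ± 0.08, adjusted p = 4.13e-05 with Apc lost and -0.15 ± 0.08, adjusted p = 0.227 with Apc intact. Chaf1b fell in double knockout relative to ApccKO crypts by 1.43 ± 0.20 on the log2 scale (adjusted p = 1.56e-05). Words shared with other genes make up 51.0% of Chaf1a, nearly all of them with Ubxn6 on the opposite strand, whose mean estimated count was 1160 against 1011 for Chaf1a, so that Chaf1a is uncertain. They make up 24.2% of Uhrf1 and 23.3% of Pcna, which they share mostly with Gm5648 and Pcna-ps2, whose mean estimated counts were 0.212 and 22.9 against 2625 for Uhrf1 and 3207 for Pcna.

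Between double knockout and Control crypts, which differ in both genes, most of the 45 did not pass. On day 2, 3 rose (Mcm2, Rfc1 and Rrm2) and 10 fell in double knockout relative to Control crypts, against 27.3% of all tested genes called higher and 26.7% called lower. The 10 were Gmnn, Gins4, Rfc2, Rfc5, Rpa2, Lig1, Tyms, Tk1, Uhrf1 and Slbp, and the median of the 45 was -0.16. These 13 genes make 28.9% of the 45, against 54% of all tested genes called in either direction. Tk1 (-1.64 ± 0.18, adjusted p = 5.34e-07) and geminin (-0.94 ± 0.12, adjusted p = 2.37e-06) fell most, and Rrm2 (0.62 ± 0.18, adjusted p = 0.00735) rose most. Rfc1 was at 21.0, 21.1 and 16.6 TPM in double knockout against 14.9, 17.1 and 18.2 TPM in Control crypts, with replicate 3 of the double knockout inside the Control range. By CPM, the scale of the fit, it was at 58.98 to 66.58 CPM against 46.67 to 57.57 CPM, without overlap (0.29 ± 0.11, adjusted p = 0.0243). On day 1, 12 rose, among them Cdt1 (0.65 ± 0.15, adjusted p = 0.00131), Mcm2 (0.65 ± 0.15, adjusted p = 0.002) and Orc6 (0.52 ± 0.13, adjusted p = 0.00311), against 22.1% of all tested genes called higher. On that day 2 fell, Tk1 (-0.89 ± 0.18, adjusted p = 0.000573) and geminin (-0.37 ± 0.12, adjusted p = 0.0159), against 20.8% of all tested genes called lower, and the median of the 45 was 0.17. The day 2 count of 13 was 8 without double knockout replicate 2, and with the enterocyte term 30 fell and none rose. The day 1 count of 14 was 6 without Control replicate 1, 6, 9 or 22 without double knockout replicate 1, 2 or 3, 5 with only the libraries compared, 20 without the 3 libraries that stand apart, and 6 with the enterocyte term.

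Whether Nle1 loss acted differently in Apc-lost and Apc-intact crypts was tested as an interaction, the log2 change with Apc lost minus that with Apc intact. On day 2 the value was negative for 45 of 45 genes, with a median of -0.49 where that of all genes was 0.04, and it passed for 4 genes, against 1.95% of all tested genes called lower. The 4 were Chaf1b (-0.99 ± 0.28, adjusted p = 0.0418), Dut (-0.84 ± 0.21, adjusted p = 0.0267), Rfc3 (-0.59 ± 0.15, adjusted p = 0.0259) and Wdhd1 (-0.59 ± 0.17, adjusted p = 0.0473). Dut was at 43.1, 48.2 and 38.2 TPM in double knockout against 94.4, 85.6 and 88.1 TPM in ApccKO crypts, and at 41.2, 34.9 and 39.6 TPM in NlecKO against 38.3, 55.5 and 40.8 TPM in Control crypts. For Dut the Apc-lost groups were far apart and the Apc-intact groups overlapped. Rfc3 was at 25.9, 29.6 and 26.3 TPM in double knockout and 54.8, 48.6 and 49.4 TPM in ApccKO crypts, and at 24.1, 21.6 and 22.6 TPM in NlecKO and 25.6, 29.4 and 26.9 TPM in Control crypts. Chaf1b was at 15.7, 15.1 and 13.3 TPM in double knockout and 51.6, 41.3 and 46.5 TPM in ApccKO crypts, and at 14.7, 8.72 and 10.1 TPM in NlecKO and 12.6, 22.03 and 13.7 TPM in Control crypts. Wdhd1 was at 7.47, 9.15 and 6.84 TPM in double knockout and 18.9, 15.4 and 18.04 TPM in ApccKO crypts, and at 5.84, 5.83 and 5.63 TPM in NlecKO and 6.83, 9.26 and 8.11 TPM in Control crypts. By TPM the NlecKO libraries lay below all Control libraries on day 2 for Rfc3 and Wdhd1, and for Chaf1b they overlapped. By CPM those of Rfc3 overlapped as well, with NlecKO replicate 1 at 24.2 CPM and Control replicate 1 at 24.09 CPM. None of the 4 calls held in all alternatives. The count was 0 without ApccKO replicate 1, double knockout replicate 3, NlecKO replicate 1 or Control replicate 1 or 3, it was 1 without ApccKO replicate 3 or double knockout replicate 1, and it was 16 without Control replicate 2. It was 11 by DESeq2, 19 under the stricter filter, 17 with only the libraries compared and 21 with the enterocyte term. The share of 1.95% belongs to the main fit. Shares of all genes under these alternatives are not given, so a rise particular to the 45 cannot be read from them. On day 1 none of the 45 passed, and none had an unadjusted p under 0.05, by edgeR, against 0.0121% of all tested genes called, with DESeq2 calling 0 as well, and the count was 0 without the 3 libraries that stand apart and with the enterocyte term.

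**Figure D5:**
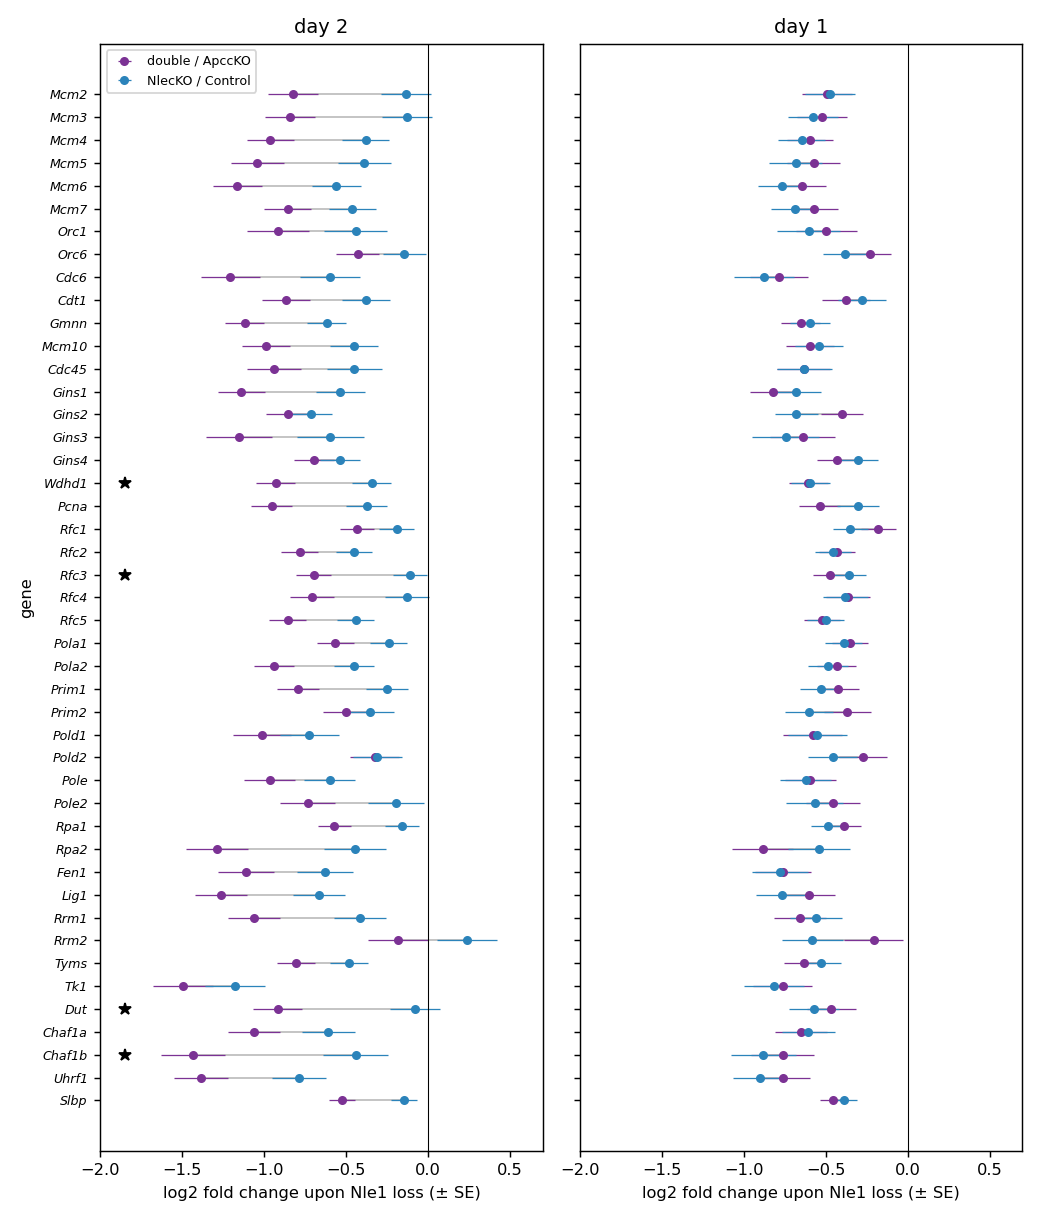
log2 fold change upon Nle1 loss (horizontal axis, ± SE) for each of the 45 genes (vertical axis) with Apc lost and with Apc intact, on day 2 and day 1, with a star at the 4 genes that passed the interaction test. On day 2 the values with Apc lost lie left of those with Apc intact for all 45 genes, with medians of -0.92 and -0.44, whereas on day 1 the medians are -0.54 and -0.57.

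Between the days, replication genes fell in double knockout crypts. In day 2 relative to day 1 double knockout crypts 25 of 45 fell and none rose, against 3.04% of all tested genes called lower, with a median of -0.53, and 45 of 45 values were negative. Dut (-0.84 ± 0.15, adjusted p = 0.0031), geminin (-0.67 ± 0.12, adjusted p = 0.0031), Rfc5 (-0.62 ± 0.11, adjusted p = 0.0031) and Pcna (-0.68 ± 0.13, adjusted p = 0.0037) had the smallest p values. Pcna was at 112, 106 and 94.9 TPM on day 2, against 193, 172 and 153 TPM on day 1, without overlap. The count of 25 was 15 or 8 without replicate 1 or 3 of day 2 and 12, 8 or 38 without replicate 1, 2 or 3 of day 1, and it was 10 with only the 6 libraries compared, 33 without the 3 libraries that stand apart and 43 with the enterocyte term. In ApccKO crypts 2 of 45 fell, Tyms (-0.42 ± 0.12, adjusted p = 0.0222) and Slbp (-0.33 ± 0.08, adjusted p = 0.0108), against 5.49% of all tested genes called lower, with a median of -0.14. By CPM all day 2 libraries lay below all day 1 libraries for 25 of the 45 in ApccKO crypts, against 19% of all genes, and for 31 in double knockout crypts, against 10.8%. That count of 2 was 1 or 0 without replicate 2 or 3 of day 1, 1 without replicate 2 or 3 of day 2 and 0 without the 3 libraries that stand apart, and it was 11 with only the 6 libraries compared and 23 with the enterocyte term. In NlecKO crypts none of the 45 passed, with 1 at an unadjusted p under 0.05 by edgeR, against 0.0362% of all tested genes called, and without day 2 replicate 1 the count was 1. In Control crypts none passed, with 5 at an unadjusted p under 0.05, against 0.163% of all tested genes called. DESeq2 called 0 in each of these 2. The differences between the days in the effect of Nle1 loss with Apc lost (0.435% of all tested genes called), with Apc intact (0.00604%) and in the effect of Apc loss (1.13%) passed for none of the 45, where 13, 4 and 0 had an unadjusted p under 0.05 and DESeq2 called 0 in each. With the enterocyte term the count was 0 for these 3 differences and for NlecKO and Control between days.

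The 14 genes with an E2F match in their promoter window were set beside the 23 with a window and no match, as a description with no test. Upon Apc loss their median was 0.91 against 0.73 on day 2 and 0.89 against 0.67 on day 1, where the 8 genes without a window had 0.58 and 0.49. On day 2 the median was -0.97 against -0.92 in double knockout relative to ApccKO crypts, and -0.91 for the genes without a window. With Apc intact Nle1 loss gave medians of -0.45 and -0.37 on day 2, and -0.54 for the genes without a window. The ranges of the 2 sets overlapped in each of these, with Tk1, which held no match, at the low end of the whole in double knockout relative to ApccKO crypts.

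Of the other genes of the pathway, 52 of a list of 53 were tested. In double knockout relative to ApccKO crypts 41 fell and 2 rose on day 2, and 27 fell and 1 rose on day 1, where 19.5% and 5.87% of all tested genes were called higher. In NlecKO relative to Control crypts 16 fell on day 2 and 17 on day 1, and none rose. In ApccKO relative to Control crypts 40 rose and 3 fell on day 2, and 42 rose and 2 fell on day 1, where 29.4% and 25% of all tested genes were called lower. The shares called in the other directions are those given above for the same comparisons. The fork stability gene Donson (-0.72 ± 0.08, adjusted p = 2.71e-06), Atad5, which unloads PCNA (-1.01 ± 0.12, adjusted p = 3.09e-06), and the uracil glycosylase Ung (-1.19 ± 0.15, adjusted p = 5.39e-06) fell with p values among the smallest in double knockout relative to ApccKO crypts of day 2. Cdca7, a factor of DNA methylation with Hells, had the largest rise upon Apc loss on that day (1.71 ± 0.12, adjusted p = 1.57e-09), and Hells rose too (0.95 ± 0.13, adjusted p = 6.06e-06), as did Donson (0.82 ± 0.08, adjusted p = 9.91e-08) and the histone chaperone gene Rbbp4 (0.74 ± 0.09, adjusted p = 1.29e-06). The same 4 genes had the smallest p values upon Apc loss on day 1, where Cdca7 rose by 1.66 ± 0.12. The alternative clamp loader subunit Chtf18 fell most with Apc intact on day 2 (-1.12 ± 0.17, adjusted p = 0.000217), followed among the smallest p values by the checkpoint mediator Clspn (-0.65 ± 0.15, adjusted p = 0.00459) and Atad5 (-0.54 ± 0.12, adjusted p = 0.00459). On day 1 with Apc intact, cyclin E1 (Ccne1, -0.86 ± 0.15, adjusted p = 0.00704), Chtf18 (-0.91 ± 0.17, adjusted p = 0.011), Clspn (-0.77 ± 0.15, adjusted p = 0.0122) and the histone chaperone Nasp (-0.60 ± 0.12, adjusted p = 0.0137) led. Pold4, the small subunit of polymerase delta, went the other way and was at 32.0 ± 1.4 TPM in double knockout against 15.9 ± 1.2 TPM in ApccKO crypts (mean ± SD, n = 3 each), a rise of 1.20 ± 0.16, adjusted p = 1.54e-05 that was there on day 1 too (0.91 ± 0.17, adjusted p = 0.00177), with a positive interaction (1.04 ± 0.23, adjusted p = 0.0122), and fell upon Apc loss (-0.54 ± 0.17, adjusted p = 0.00864). The other 7 pathway genes with an interaction on day 2 (Tipin, Cdca7, Ung, Hells, Nasp, Donson and Rbbp4) had negative values, from -0.96 to -0.46.

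Genes of mitosis, 34 on the list and all tested, fell in greater number than replication genes upon Nle1 loss with Apc intact on day 2 (29 of 34, against 20 of 45 replication genes) and in smaller number on day 1 (6 of 34, against 27 of 45). In the same order, 8.26% and 1.61% of all tested genes were called lower. The difference between the lists was not tested. With Apc lost 29 of 34 fell on day 2 and 17 of 34 on day 1, where 15.4% and 4.77% of all tested genes were called lower, and upon Apc loss 13 rose on day 2 and 20 on day 1, where 29.2% and 24.7% were called higher. In double knockout relative to Control crypts 22 of 34 fell on day 2, against 10 of 45 replication genes. Of all tested genes 26.7% were called lower there.

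Markers of other cell types also changed in these comparisons. Upon Apc loss on day 2, 27 of 27 enterocyte, 9 of 12 goblet, 14 of 16 enteroendocrine, 11 of 11 tuft and 13 of 17 immune cell markers fell, where 29.4% of all tested genes were called lower, and 3 of 10 Paneth cell markers rose, near the 29.2% of all genes. In double knockout relative to ApccKO crypts on day 2, 4 of 27 enterocyte, 8 of 12 goblet, 10 of 16 enteroendocrine, 5 of 11 tuft and 9 of 17 immune cell markers rose, where 19.5% of all genes were called higher, so that the enterocyte share was below that of all genes. In NlecKO relative to Control crypts on day 2, 1 of 27 enterocyte and 8 of 16 enteroendocrine markers rose, where 7.33% of all genes were called higher. On day 1 none of the 27 enterocyte markers passed in NlecKO relative to Control or in double knockout relative to ApccKO crypts, and 20 of 27 fell upon Apc loss. The summed immune markers were 125.9 to 162.9 TPM in double knockout, 85.44 to 99.06 TPM in ApccKO, 619.1 to 816.6 TPM in NlecKO and 495.7 to 870.1 TPM in Control crypts of day 2. Goblet cell markers summed to 9676 to 11380 TPM in double knockout and 5600 to 6636 TPM in ApccKO crypts of that day. The part of these cells in the results was not tested, and the enterocyte term cannot tell it apart from genotype.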

How the data were processed

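Polyadenylated RNA of jejunal crypts was read from 24 libraries, 1 per mouse, grouped by genotype and day from the labels' titles. The authors deposited expected counts (estimated counts per gene) and TPM values, and kallisto 0.43, DESeq2, DESeq and the build mm9 are named in the submitters' processing notes. The annotation release, the summing of transcripts to genes and the strandedness of the libraries were not stated in the labels. The other deposited table, of normalised values, was left out.

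After rounding, the estimated counts were tested in edgeR 4.0.16 (limma 3.58.1, R 4.3.3). Genes passing the edgeR filter (minimum count 10 over the 8 groups) numbered 16552 of 37620 and held at least 99.92% of the counts of each library, and the biological coefficient of variation was 17.6%. Libraries were scaled by TMM. The 24 libraries entered 1 robust quasi-likelihood fit, with a mean for each group, from which 17 comparisons were drawn, with Benjamini-Hochberg adjustment over all genes and a threshold of 0.05. SE is the absolute log2 fold change divided by the root of the F statistic. TPM give levels per length and enter no test. The procedure was tested on simulated data.

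Alternatives were DESeq2 1.42.0, its size factors in edgeR, no filter, a stricter filter (2 CPM in at least 3 libraries), a replicate block, only the libraries compared, leaving out each library, and leaving out 3 libraries together. A term for the summed enterocyte markers was added after seeing the data. Same-numbered libraries of the groups compared correlated at -0.26 to 0.412 after removing group means, not all above 0.1 in any comparison, so replicate numbers do not pair them. Shared words are stretches of 31 bases of the GENCODE M21 transcripts that occur in more than 1 gene. Genes above 20% were named, a mark set after seeing the shares. Genes below the mark shared up to 19.4%. Among them, Rfc5 shared 9.93% with Wsb2 (mean estimated count 2260 against 888 for Rfc5). Rfc4 shared 10.5% with Eif4a2 (5710 against 466 for Rfc4). Promoter windows were taken from RefSeq (GRCm38.p6), with the motifs chosen as described in the text.

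The members, gene lists and tests were chosen with earlier results of these data known. Values of single libraries are given for the gene with the smallest p and the gene with the highest TPM of each role. They are also given for genes called against the majority and for genes not called where 5 or fewer were not. Most of these values are of day 2, and for some genes not every genotype is given. The sources say that each library is a separate mouse, and p values measure the spread between mice. One gene of the wider pathway list is not reported here by name.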

Additional observations from a re-analysis of the deposited data

Results flagged for a closer look

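By the interaction term in edgeR, the effect of Nle1 loss on day 2 differed between Apc-lost and Apc-intact crypts for 4 of the 45 replication genes. Each of them was lowered further with Apc lost, and 1.95% of all tested genes were called lower. Leaving out 1 library gave 0 to 16 of the 45, and none of the 4 calls held in all alternatives. Chaf1b, of the CAF-1 histone chaperone, differed by -0.99 on the log2 scale (adjusted p = 0.0418), with a change of -1.43 with Apc lost and -0.44 with Apc intact. The dUTPase gene Dut differed by -0.84 (adjusted p = 0.0267), with -0.92 and -0.08 in the same order. The clamp loader gene Rfc3 differed by -0.59 (adjusted p = 0.0259), with -0.70 and -0.11. The fork scaffold gene Wdhd1 differed by -0.59 (adjusted p = 0.0473), with -0.93 and -0.35. Adjusted p values over the alternatives ran from 0.00894 to 0.117 for Chaf1b, 0.00208 to 0.0851 for Dut, 0.00557 to 0.0741 for Rfc3 and 0.00268 to 0.138 for Wdhd1, with the same sign throughout.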

How the results depend on the processing

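Values here are the number of the 45 genes called unless said otherwise. Shares of all tested genes given above belong to the main fit unless said otherwise. Counts under alternatives therefore stand without a share of all genes beside them. With DESeq2 size factors every count stayed within 1.5 times. Nle1 loss with Apc intact on day 1 (27) gave 17 with no filter, 0 with only the libraries compared and 17 with the enterocyte term, and on day 2 (20) it gave 0 with only the libraries compared. With Apc lost on day 1 (36) the count was 9 with only the libraries compared and 0 without the 3 libraries that stand apart. The interaction on day 2 (4) gave 11 by DESeq2, 19 under the stricter filter, 17 with only the libraries compared and 21 with the enterocyte term. Double knockout relative to Control on day 1 (14) gave 5 with only the libraries compared and 6 with the enterocyte term, and on day 2 (13) it gave 30 with that term. With the enterocyte term Apc loss gave 10 on day 2 (41 without it) and 27 on day 1 (42 without it), and Rfc2 upon Apc loss on day 2 turned to -0.018 on the log2 scale, the 1 reversal that involved a call among the changes of single genes under alternatives, of which 11139 stayed on their side of the threshold, 659 lost a call and 261 gained one. Changes not called could turn sign and are counted among the 11139. Between days, the double knockout (25) gave 10 with only the libraries compared and 43 with the enterocyte term, and ApccKO (2) gave 11 and 23 under the same changes and 0 without the 3 libraries.

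Leaving out 1 library gave 42 to 43 for Nle1 loss with Apc lost on day 2 and 8 to 35 on day 1, 5 to 24 with Apc intact on day 2 and 0 to 40 on day 1. Apc loss gave 39 to 41 on day 2 and 41 to 44 on day 1, and double knockout against Control 8 to 14 on day 2 and 6 to 22 on day 1. The interaction gave 0 to 16 on day 2 and 0 on day 1. Between days the range was 8 to 38 for the double knockout, 0 to 2 for ApccKO, 0 to 1 for NlecKO and 0 for Control and for the 3 differences of effects between days.

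Replicate numbers did not pair the libraries. With the replicate block the counts were 43 on day 2 and 33 on day 1 for Nle1 loss with Apc lost, 18 and 23 with Apc intact, 41 and 42 for Apc loss, 12 and 13 for double knockout against Control, and 3 and 0 for the interaction, and between days 22 for the double knockout, 2 for ApccKO and 0 for the rest. The cause of the changes listed was not tested. Fits with only the libraries compared have fewer libraries to estimate the spread, and their counts moved both down and up. With 3 mice a group the spread between mice limits which changes could be called. The SE beside each gene is the error of its fitted change, with the spread estimated from all 24 libraries.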
